A study of Mus musculus with 8 samples.

Results

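The genes described here are 7 that shape microtubules, growth cones and the link between the cytoskeleton and the nucleus: Map2, Mapt, Tubb2b, Dpysl3, Marcks, Camsap1 and Syne1. They were taken by gene symbol from the probe annotation, which names 5822 genes on the array, 2900 of which were measured well enough to test, and all 7 were among those. The list was drawn up with results of these arrays known: Camsap1 and Syne1 had small p-values between the genotypes, Tubb2b and Marcks small p-values within a filament list, and for Map2, Mapt and Dpysl3 the choosing value is not recorded. Differences between genotypes are therefore given for the members as a description, with no test. Where the choosing value or its contrast is not given, ratios to the pool or covariation may have entered the choice too. The p-values of those for the members are thus not support independent of the choice.

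The arrays compared RNA of cultured cortical astrocytes from neonatal wild-type mice (WT, 4 arrays) and from neonatal mice null for connexin43 (Cx43 KO, 4 arrays), with the strain C57BL/6j named for 1 WT array and for the reference of that array. Every array also carried a reference pooled from adult male and female mouse tissues, among them brain, heart, liver, lung and stomach. Nothing in the labels ties an array to its own animal or culture, so a p-value here measures only how far these samples spread, and that spread may be technical. Each lot batch, numbered 1 to 4, held 1 WT and 1 Cx43 KO array, and the title of Cx43 KO 3 omits the word KO.

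Values are log2 ratios of astrocytes over the pool, centred so that the median feature of an array is at 0. The base of the logarithm is assumed. The direction of the ratio is likely rather than stated: 6 tested astrocyte markers had a median of 1.46 and 6 genes of adult tissues a median of -3.66, and every sign would turn if the ratio ran the other way. Between 3506 and 5514 of 9568 features carried a ratio on an array, and exact 0 was read as no ratio. Arrays give no depth, and their number limits the precision. The annotation names 0 features for Gja1, the connexin43 gene, so the genotype could not be checked by its own transcript.

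Microtubules are hollow polymers of alpha- and beta-tubulin whose stability and spacing are set by proteins that bind along their length or at their ends. Map2 and tau (Mapt) are best known from neurons, where they lie along the microtubules of dendrites and axons. In astrocytes, microtubules carry vesicles and RNA into the processes, position the nucleus and are remodelled when the cell changes shape. Because the reference pool holds adult brain, a low ratio says that a transcript was scarcer in the cultures than in the pool, and it does not give the abundance of the transcript. Ratios of different genes are thus placed by their distance from the pool and not as levels against each other. In such bulk RNA, fewer cells of a type and less RNA per cell cannot be told apart.

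Tubb2b, Marcks, Dpysl3 and Camsap1 lay above the median feature, Mapt and Syne1 below it, and Map2 near it. Of the 7 genes, 4 were called higher and 2 lower by limma at an adjusted p of 0.05, where 34.7% of all 3505 genes and features tested were called higher and 33.7% lower (68.4% in all). Camsap1 and Syne1 were chosen on a difference between genotypes, and their Cx43 KO arrays enter the mean that was called. On the WT arrays alone Camsap1 averaged 0.17 ± 0.28 (SD, n = 3) and Syne1 -0.46 ± 0.41 (SD, n = 4).

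Tubb2b, a beta-tubulin abundant in the developing brain, had the highest ratio of the 7. It lay at 2.49, 2.54, 2.05 and 2.71 on WT 1 to 4 and at 1.74, 2.44, 2.65 and 0.96 on Cx43 KO 1 to 4. The groups overlapped, and the lowest array was Cx43 KO 4. The mean over both genotypes was 2.20 (standard error, SE, 0.17, limma adjusted p = 1.50e-06), 4.58-fold over the median feature and above 99.2% of everything tested. Near-identical beta-tubulins can bind a spotted probe of this gene, so the value is uncertain as to the family member.

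Mapt encodes tau, which binds along axonal microtubules. Averaged over its features it lay at -1.19, -0.88, -1.98 and -0.91 on WT 1 to 4 and at -1.24, -1.34, -1.48 and -2.44 on Cx43 KO 1 to 4. All 8 arrays lay below 0, the groups overlapped, and Cx43 KO 4 was the lowest. The mean was -1.43 (SE 0.16, limma adjusted p = 1.99e-05), 2.70-fold under the median feature, with 5.42% of everything tested lower still. The array holds 4 features for Mapt, of which 1 had no ratio on any array and the others had ratios on 8, 5 and 7, so that arrays differ in the features averaged. The feature with 8 ratios averaged -1.47 ± 0.35 (SD, n = 4) over the WT arrays and -2.31 ± 0.77 (SD, n = 4) over the Cx43 KO arrays, which differ by -0.84. The one with 7 ratios averaged -0.62 ± 0.065 (SD, n = 3) and -0.73 ± 0.54 (SD, n = 4), which differ by -0.10. The size of the Mapt difference thus depended on the feature read.

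Map2, the dendritic microtubule-associated protein of neurons, was the most variable member. It lay at 0.28, 1.22, 0.085 and 0.54 on WT 1 to 4 and at 0.25, 1.17, 0.76 and -2.54 on Cx43 KO 1 to 4. The first 3 Cx43 KO arrays fell within the WT range, and Cx43 KO 4 alone lay below 0. Its SD over the 8 arrays was 1.19, above that of 99.1% of everything tested, and without Cx43 KO 4 it was 0.45. The mean ratio of 0.22 (SE 0.34, limma adjusted p = 0.580) was not called. Without Cx43 KO 4 it was 0.63 (limma adjusted p = 0.00271) and was called higher.

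Neuronal transcripts as a list lay below the median feature. Of 11 neuronal markers with a feature, 10 had a ratio on some array, and the mean ratio of each of those 10 was below 0, while Dlg4, a synaptic scaffold gene, had no ratio on any array. The vesicle protein gene Syt1 had a mean of -4.29 over 3 arrays, the GABA-synthesising enzyme gene Gad1 -3.73 over 4 and the neurofilament gene Nefm -1.88 over 8. These values do not give the number of neurons in the cultures.

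Dpysl3 encodes a collapsin response mediator protein that binds tubulin and actin in growth cones. It lay at 1.97, 0.84, 0.71 and 1.84 on WT 1 to 4 and at -0.045, 0.17, 1.37 and 1.78 on Cx43 KO 1 to 4. WT 1 and WT 4 and Cx43 KO 3 and Cx43 KO 4 were the high arrays, so each genotype held high and low ones. The mean was 1.08 (SE 0.22, limma adjusted p = 0.00139). Its 2 features followed each other over the arrays at r = 0.89, as a description over 8 arrays, but stood 1.95 apart in ratio (SD 0.39). The first averaged 2.38 ± 0.59 (SD, n = 4) over WT and 1.73 ± 0.83 (SD, n = 4) over Cx43 KO arrays. The second averaged 0.31 ± 0.81 (SD, n = 4) and -0.094 ± 0.96 (SD, n = 4), near the median feature. That the gene lay above the median feature thus depended on the first feature.

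Marcks, a protein kinase C substrate that binds actin and the plasma membrane, lay at 1.71, 0.97, 1.29 and 2.03 on WT 1 to 4 and at 1.11, 1.28, 1.18 and 1.41 on Cx43 KO 1 to 4. All 8 arrays lay above 0. The Cx43 KO arrays sat close together (SD 0.13, n = 4) inside the wider WT range (SD 0.47, n = 4); the difference in spread was not tested. The mean was 1.37 (SE 0.12, limma adjusted p = 2.63e-06), 2.59-fold over the median feature. Its 2 features followed each other at r = 0.84 over 8 arrays.

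Camsap1 binds and protects the minus ends of microtubules that are not anchored at the centrosome. It had a ratio on 6 arrays, at -0.018, 0.034 and 0.49 on WT 1, 3 and 4 and at 1.21, 2.26 and 1.72 on Cx43 KO 1, 3 and 4. The arrays without a ratio were those of lot batch 2. Every measured Cx43 KO array lay above every measured WT array. The mean was 0.95 (SE 0.15, limma adjusted p = 0.000510), and the 3 WT arrays themselves averaged 0.17 ± 0.28 (SD, n = 3), close to the median feature.

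Syne1 encodes nesprin-1, which spans the outer nuclear membrane and ties the nucleus to the cytoskeleton. It lay at -0.74, 0.016, -0.26 and -0.86 on WT 1 to 4 and at -1.25, -1.12, -1.90 and -1.60 on Cx43 KO 1 to 4. Every Cx43 KO array lay below every WT array. The mean was -0.96 (SE 0.12, limma adjusted p = 5.74e-05), 1.95-fold under the median feature. Syne1, Camsap1, Map2 and Tubb2b had 1 feature each, so their values could not be set beside a second feature.

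**Figure D1:**
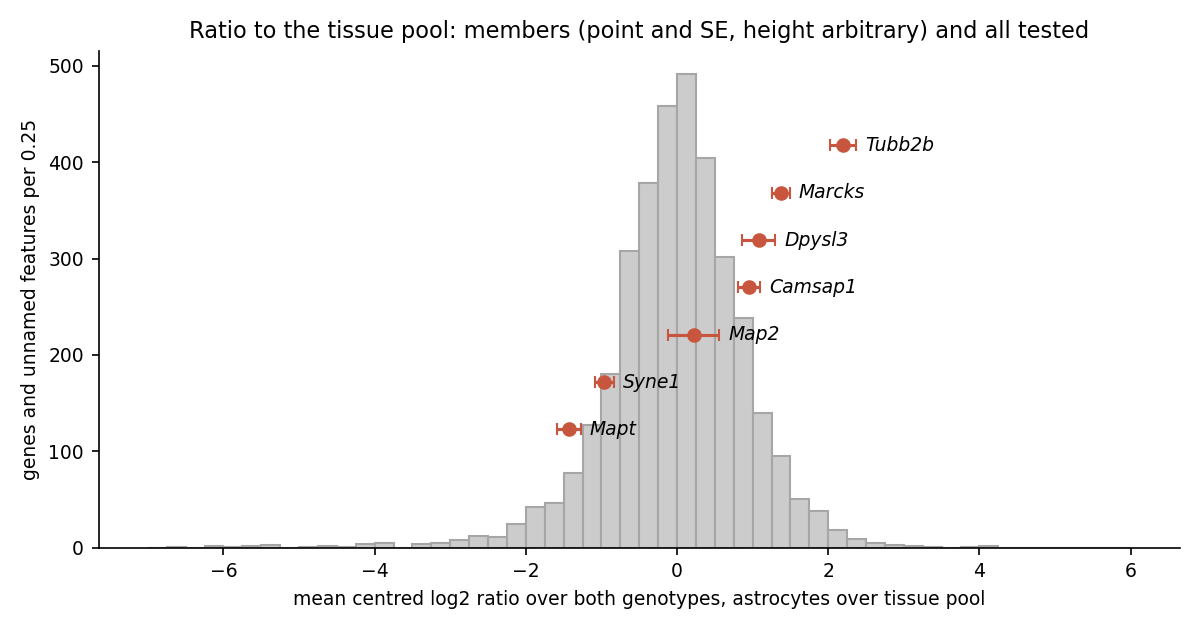
The grey histogram counts all 3505 genes and unnamed features tested by their mean centred log2 ratio of astrocytes over the tissue pool, in steps of 0.25, and the red points give the 7 members with their SE at arbitrary heights. Tubb2b at 2.20 stands near the upper end, Map2 at 0.22 near the centre and Mapt at -1.43 in the lower part.

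Gene start regions are shown for Map2, the member that varied most, and for Camsap1 and Syne1, the members whose genotype groups did not overlap. Only these 3 of the 7 genes had an entry for a start region. The sequences are the 250 bases before a listed start, on the strand of the gene, from RefSeq on GRCm38.p6, at chr1:66175079-66175328 (plus strand), chr2:25983283-25983532 (minus strand) and chr10:5550693-5550942 (minus strand, the most upstream of 3 listed Syne1 starts). Capitals mark the GC box, GGGCGG or its reverse complement CCGCCC.
Map2: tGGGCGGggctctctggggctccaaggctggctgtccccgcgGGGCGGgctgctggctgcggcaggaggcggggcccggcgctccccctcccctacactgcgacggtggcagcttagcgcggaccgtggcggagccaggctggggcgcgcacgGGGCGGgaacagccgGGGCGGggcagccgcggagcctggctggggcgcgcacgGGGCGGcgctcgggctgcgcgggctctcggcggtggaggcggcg
Camsap1: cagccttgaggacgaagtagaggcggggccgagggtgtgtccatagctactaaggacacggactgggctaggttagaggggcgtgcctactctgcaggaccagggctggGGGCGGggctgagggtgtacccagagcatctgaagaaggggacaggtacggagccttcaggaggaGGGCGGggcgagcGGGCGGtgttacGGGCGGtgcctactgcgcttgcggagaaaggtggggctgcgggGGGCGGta
Syne1: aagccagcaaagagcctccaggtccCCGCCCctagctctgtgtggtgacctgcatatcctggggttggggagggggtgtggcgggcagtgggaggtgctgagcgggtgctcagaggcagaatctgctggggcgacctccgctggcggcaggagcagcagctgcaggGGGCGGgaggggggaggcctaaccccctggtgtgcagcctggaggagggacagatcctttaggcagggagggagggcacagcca
The Map2 and Camsap1 stretches each held 5 GC boxes and the Syne1 stretch 2, and 32.7% of 32851 start regions of that length held at least 1. The stretches were 81.2%, 66.4% and 68.0% G and C, against a median of 52.4%. A search for TATAAA and CCAAT on both strands found 0 in each of the 3, and CANNTG, the E-box, was found 0, 1 and 1 times. These letters were in 12.4%, 33.8% and 66.2% of all start regions. The other Syne1 starts, at chr10:5488315-5488564 and chr10:5069064-5069313, were 38.8% and 50.8% G and C, with 0 GC boxes each and 1 TATAAA in the former. The features of the array are not tied to a start here, and a match is a description only.

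Between genotypes, 6 of the 7 genes had a lower mean in Cx43 KO and Camsap1 a higher one, where 47.4% of everything tested lay lower and 52.6% higher. Since the genes were chosen partly on this contrast, nothing is read from that count. With limma, 0 of 3505 passed an adjusted p of 0.05 (0.0%), and 263 (7.5%) lay below an unadjusted 0.05. The groups did not overlap for 2 of the 7, Camsap1 and Syne1, and for 5.22% of all tested (2.8% with Cx43 KO lower, 2.43% with Cx43 KO higher), and these values too were part of the choice.

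**Figure D2:**
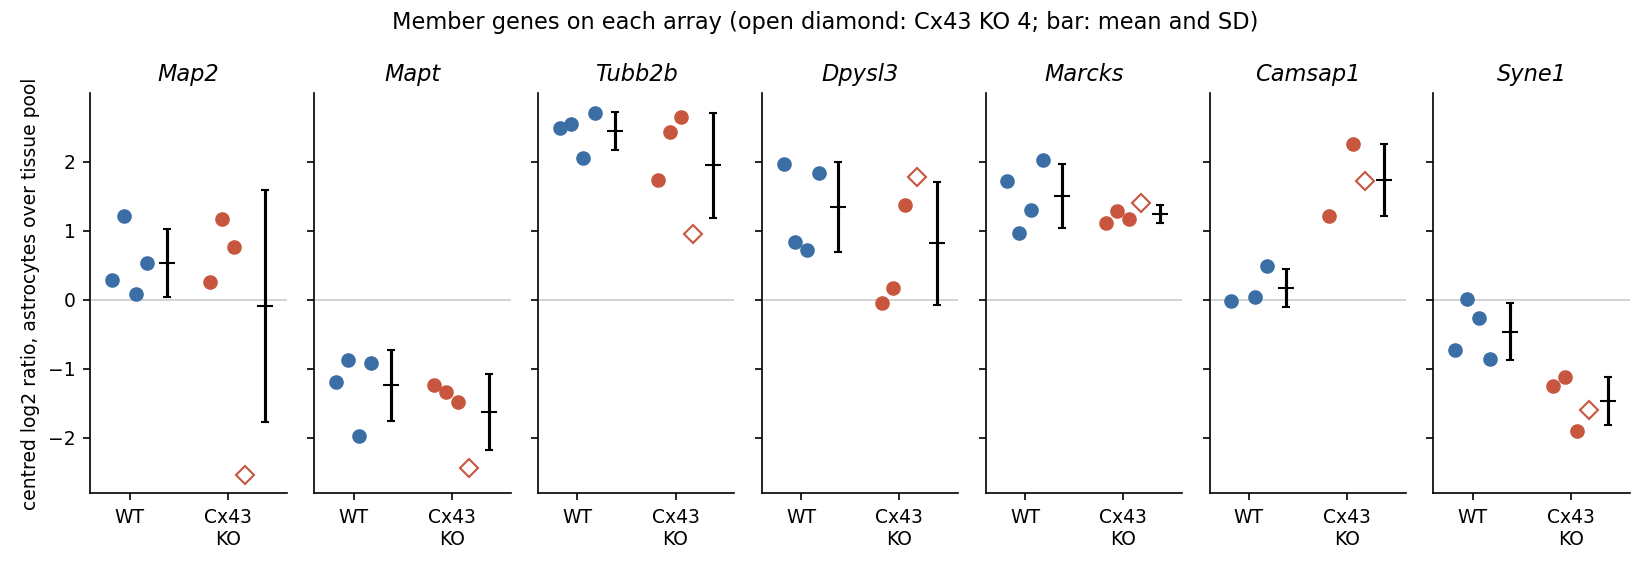
Each panel gives the centred log2 ratio of a member on the 4 WT (blue) and 4 Cx43 KO (red) arrays, with the group mean and SD as a black bar and Cx43 KO 4 as an open diamond. Camsap1 is high and Syne1 low on all measured Cx43 KO arrays, while Map2, Mapt and Tubb2b are lowest on Cx43 KO 4.

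Camsap1 averaged 1.73 ± 0.52 (SD, n = 3) over the Cx43 KO arrays and 0.17 ± 0.28 (SD, n = 3) over the WT arrays, a gap of 1.56 (SE 0.30) or 2.95-fold. It was higher in Cx43 KO in each of the 3 lot batches with both values, by 1.23, 2.22 and 1.23, as were 9.27% of all tested in every lot batch with both values. Reading exact 0 as a value, which fills lot batch 2, gave 1.18. Syne1 averaged -1.47 ± 0.35 (SD, n = 4) over the Cx43 KO arrays and -0.46 ± 0.41 (SD, n = 4) over the WT arrays, a gap of -1.01 (SE 0.25), 2.01-fold lower. Its difference was -0.52, -1.14, -1.64 and -0.74 in lot batches 1 to 4, and 9.76% of all tested were likewise lower in each. Leaving out any single array kept it between -1.14 and -0.85.

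The remaining members had overlapping groups, and their differences were -0.62 (SE 0.68) for Map2, -0.38 (SE 0.32) for Mapt, -0.50 (SE 0.34) for Tubb2b, -0.52 (SE 0.44) for Dpysl3 and -0.26 (SE 0.23) for Marcks. Each of these 5 was lower in Cx43 KO in 3 lot batches and higher in 1, lot batch 2 for Marcks and lot batch 3 for the others. In lot batch 3, WT 3 had only the Mapt feature with 8 ratios, while Cx43 KO 3 averaged more features. That feature was lower in Cx43 KO in every lot batch, at -1.98 on WT 3 and -2.14 on Cx43 KO 3. For Map2 the 4 within-batch differences were -0.028, -0.045, 0.67 and -3.08, so that lot batch 4 carried the mean. Without Cx43 KO 4 the Map2 difference was 0.20, that of Mapt -0.11 and that of Tubb2b -0.17. In Dpysl3 the largest within-batch difference was -2.01 in lot batch 1, and without that lot batch the mean difference was -0.024. The Dpysl3 difference without Cx43 KO 4 was -0.84, and without Cx43 KO 1 it was -0.23. For Marcks, leaving out WT 4 gave -0.082.

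**Figure D3:**
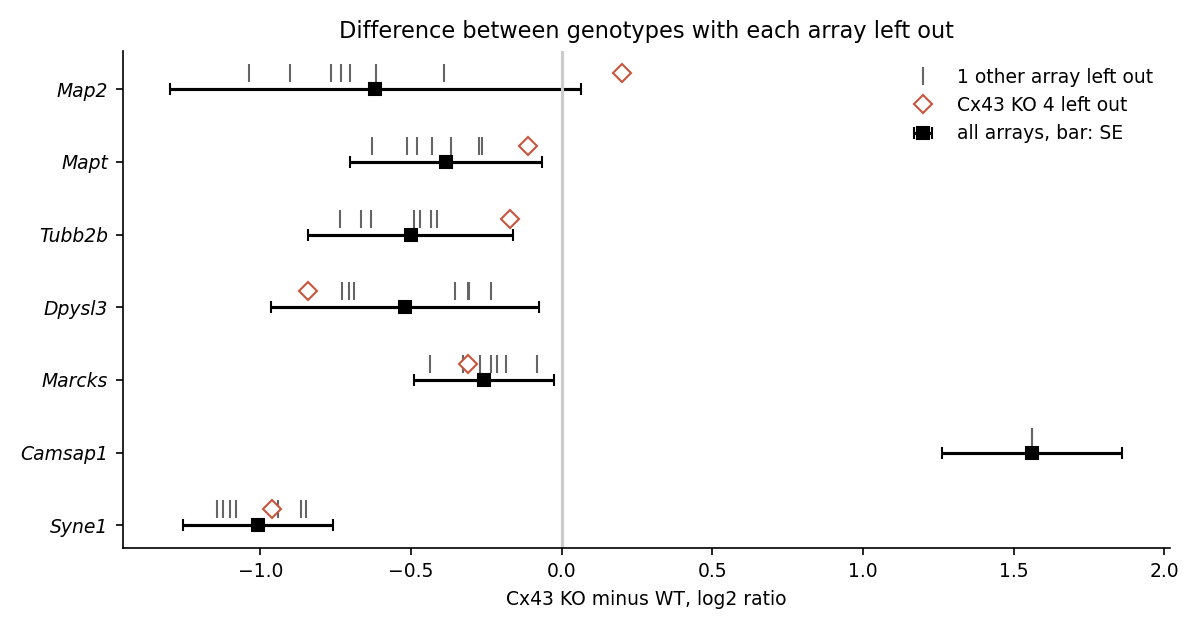
Black squares give Cx43 KO minus WT for each member on the log2 scale with its SE, grey ticks the same value with 1 other array left out, and open diamonds the value without Cx43 KO 4. Without that array Map2 moves to 0.20 while Syne1 stays near -0.96, and Camsap1 has no value without it because 3 arrays per genotype were required.

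The number of features that carried a ratio differed between arrays, and its relation to each of the 6 members with 8 values was tested. Camsap1, with no ratio on the arrays of lot batch 2, was not among them. The 5 arrays WT 1, WT 4 and Cx43 KO 1, 3 and 4 had over 4500 such features and the other 3 had fewer, a split chosen after the values were seen. In these sets the Syne1 difference was -0.78 (2 WT and 3 Cx43 KO arrays) and -1.001 (2 WT and 1 Cx43 KO array), that of Dpysl3 was -0.87 and -0.60, and that of Camsap1 was 1.49 in the first set. Map2 was -0.92 and 0.52, Tubb2b -0.81 and 0.14, Mapt -0.67 and 0.090, and Marcks -0.64 and 0.15, so these 4 changed direction between the sets. For Map2 the negative value of the first set rested on Cx43 KO 4, at -2.54. In that set Map2 lay at 0.28 and 0.54 on WT 1 and WT 4, and at 0.25 and 0.76 on Cx43 KO 1 and Cx43 KO 3. For Mapt the change depended on the features averaged, since its feature with 8 ratios was on average lower in Cx43 KO in both sets. In the second set that feature lay at -1.20 and -1.98 on WT 2 and WT 3 and at -1.82 on Cx43 KO 2. Over the 8 arrays the number of features correlated with Dpysl3 at r = 0.68 (rho = 0.69), with Marcks at r = 0.60 (rho = 0.57) and with Syne1 at r = -0.63 (rho = -0.50). Exact permutation tests gave p = 0.078, 0.12 and 0.11 for r and 0.069, 0.15 and 0.22 for rho, with adjusted p = 0.233 for each r over the 6 relations. Without the 2 arrays farthest from the gene's median r was 0.92, 0.27 and -0.33, so the values for Marcks and Syne1 over all arrays rested in part on those left out. After subtracting the genotype means, r was 0.80 for Dpysl3, 0.73 for Marcks and -0.92 for Syne1. Of the 6 relations over all 8 arrays, 0 had an exact permutation p under 0.05, adjusted or not. The values after subtracting the genotype means were not tested.

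Map2, Mapt and Tubb2b followed each other over the arrays, mainly through Cx43 KO 4. Among the 6 genes with 8 values, 3 were lowest on that array, where 22.8% of the 2596 genes and features with 8 values were, and 0 were highest there, against 20.2%. Map2 and Tubb2b correlated at r = 0.89 (exact permutation p = 0.013, adjusted p = 0.120 over 15 pairs, rho = 0.69 with p = 0.069, n = 8). Map2 and Mapt correlated at r = 0.82 (exact permutation p = 0.017, adjusted p = 0.120, rho = 0.64 with p = 0.096, n = 8). Mapt and Tubb2b correlated at r = 0.79 (exact permutation p = 0.024, adjusted p = 0.120, rho = 0.62 with p = 0.12, n = 8). Of the 15 pairs, 0 passed after adjustment, and 3 had an unadjusted exact permutation p under 0.05 for r. Without Cx43 KO 4 the 3 values of r were 0.54, 0.47 and 0.43. Without the 2 arrays farthest from the median of the first gene, Cx43 KO 4 among them each time, they were 0.52, 0.26 and 0.19. Leaving out only the other array (WT 2, WT 2 and WT 3) gave 0.88, 0.79 and 0.83. The relations thus rested mainly on Cx43 KO 4. After subtracting the genotype means, r was 0.89, 0.80 and 0.75.

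Dpysl3 and Marcks both had high values on WT 1 and WT 4. They correlated at r = 0.68 (exact permutation p = 0.061, adjusted p = 0.230, rho = 0.71 with p = 0.058, n = 8), at r = 0.71 without Cx43 KO 4 and at r = 0.75 without Cx43 KO 1 and Cx43 KO 2, the arrays farthest from the Dpysl3 median. The relation did not pass the threshold before or after adjustment. Dpysl3 and Syne1 correlated at r = -0.13 over all arrays (exact permutation p = 0.75, adjusted p = 0.901, rho = 0.048 with p = 0.93) and at -0.85 after subtracting the genotype means. Camsap1, measured on 6 arrays, entered no pair.

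**Figure D4:**
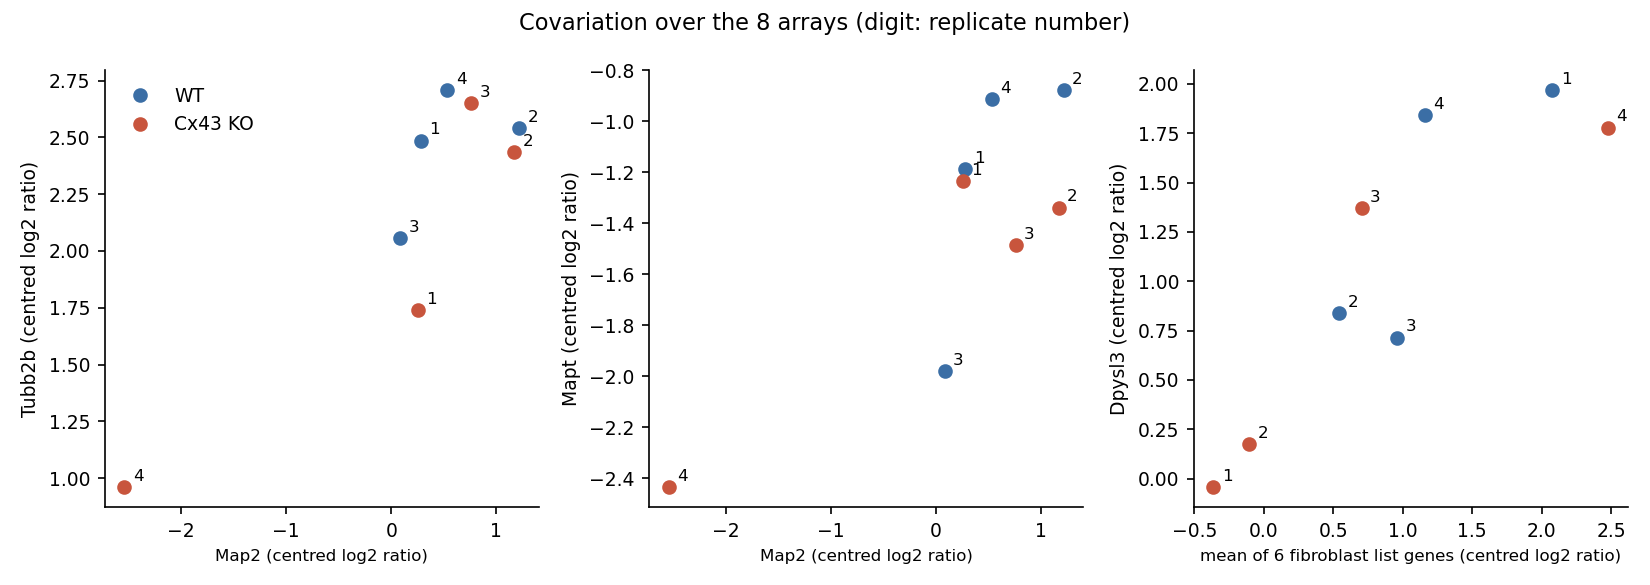
Points are arrays, WT in blue and Cx43 KO in red with their replicate number, and both axes are centred log2 ratios, of Tubb2b against Map2, of Mapt against Map2 and of Dpysl3 against the mean of 6 fibroblast, meningeal and mural marker genes. Cx43 KO 4 lies alone at the lower left of the first 2 panels, with Map2 at -2.54, whereas the Dpysl3 points spread along the third.

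Markers of other cell types moved with the same arrays, and their part in the members' values was not tested. On Cx43 KO 4 the mean of 4 astrocyte markers (Fabp7, Aldoc, Ttyh1 and Gpm6b) was 0.44, against 1.84 to 2.18 on the other 7 arrays. The mean of 7 microglia and macrophage markers was 1.79 there, against -0.040 to 0.97, while Ptprc, Fcer1g, Ctss, Mpeg1 and Coro1a had no ratio on any array. Itgam, Cd68, Cd53 and Rac2 were highest on Cx43 KO 4, Rac2 at 3.04 against -0.34 to 0.66, whereas Tyrobp, Ctsz and Lgmn were not highest there. The mean of 6 fibroblast, meningeal and mural markers was 2.48, against -0.36 to 2.08. Col1a1, Col3a1, Col6a1, Fn1 and Islr were highest on Cx43 KO 4, whereas Col6a3 was not, at -0.49 there against 0.91 on WT 1. Col3a1 had the widest range of these genes, from -3.98 on Cx43 KO 1 to 3.67 on Cx43 KO 4. Lum and Fmod, also of that list, had 6 and 7 values and were not highest there. Of the oligodendrocyte lineage list only Cnp, a myelin enzyme gene, had 8 values, at -1.53 there against -0.42 to 0.18. Olig2, a transcription factor gene of that lineage, had 4 values, 0.10 there against 1.90, 2.63 and 2.09 on WT 1, WT 4 and Cx43 KO 3. Mbp and Pdgfra, also of that list, had 6 values each and were not lowest there. Mbp lay at -5.55 on Cx43 KO 4, inside -5.88 to -4.53 on the others. Pdgfra lay at 0.24 on Cx43 KO 4, inside -1.69 to 1.96. The mean of 3 neuronal markers (Uchl1, Nefm and Npy) was -1.34 there, inside the range of the other 7, -1.54 to -0.57. In WT the ranges were 1.84 to 2.18 for the astrocyte list, 0.31 to 0.97 for microglia, 0.54 to 2.08 for fibroblasts and -1.54 to -0.70 for neurons. In Cx43 KO they were 0.44 to 2.09, -0.040 to 1.79, -0.36 to 2.48 and -1.34 to -0.57.

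The member that followed a marker list most closely in rank was Dpysl3, with the fibroblast, meningeal and mural mean. The correlation was r = 0.88 (exact permutation p = 0.0044, adjusted p = 0.106 over 24 relations, rho = 0.86 with p = 0.011, n = 8), 0.90 without Cx43 KO 4 and 0.71 without Cx43 KO 1 and Cx43 KO 2. Map2 correlated with the astrocyte mean at r = 0.94 (exact permutation p = 0.031, adjusted p = 0.141, rho = 0.62 with p = 0.12, n = 8). Without Cx43 KO 4 that r was 0.30, and without Cx43 KO 4 and WT 2 it was 0.24, so it rested mainly on Cx43 KO 4. Tubb2b correlated with the astrocyte mean at r = 0.86 (exact permutation p = 0.025, adjusted p = 0.141, rho = 0.79 with p = 0.028, n = 8). Without Cx43 KO 4 it was 0.37, and without Cx43 KO 1 and Cx43 KO 4 it was 0.655. For Mapt it was r = 0.80 (exact permutation p = 0.019, adjusted p = 0.141, rho = 0.55 with p = 0.17, n = 8), and 0.46 without Cx43 KO 4. Dpysl3 correlated with the neuronal mean at r = -0.83 (exact permutation p = 0.012, adjusted p = 0.141, rho = -0.79 with p = 0.028, n = 8), -0.80 without Cx43 KO 4 and -0.66 without Cx43 KO 1 and Cx43 KO 2. Of the 24 relations of a member with a list of at least 3 marker genes, 0 passed the adjustment for r, and 7 had an unadjusted exact permutation p under 0.05.

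**Figure D5:**
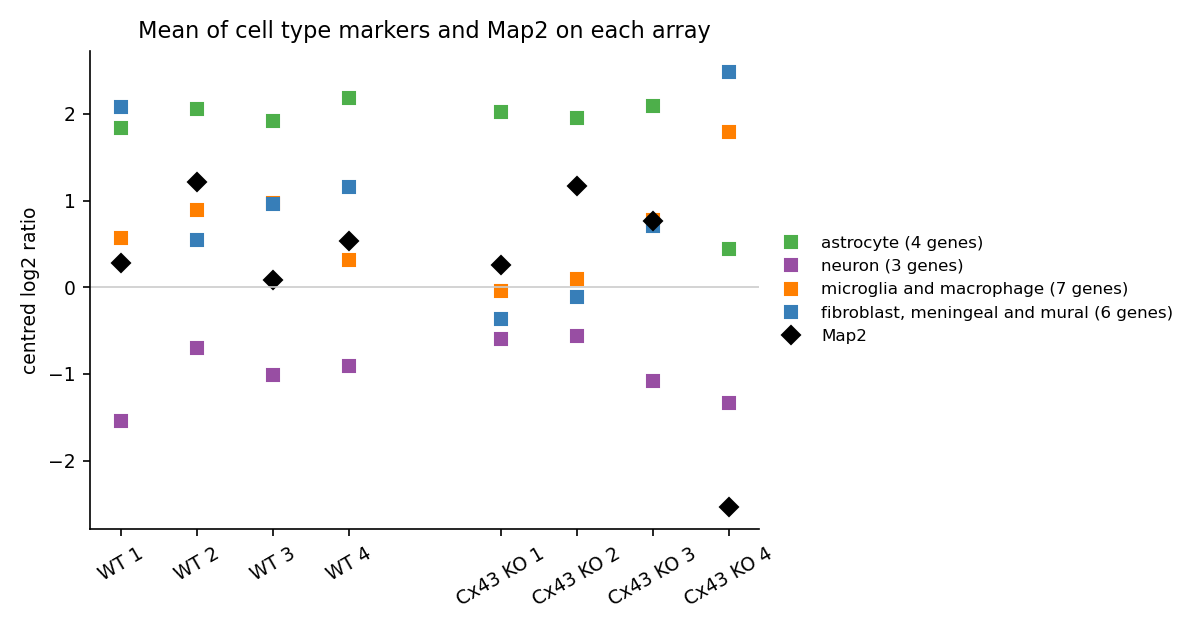
Squares give the mean centred log2 ratio of each cell type marker list on each array, and black diamonds give Map2. On Cx43 KO 4 the astrocyte mean is at 0.44 and Map2 at -2.54, while the microglia and fibroblast means are at 1.79 and 2.48.

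Over the 8 arrays, the genes whose ratio was most like that of each member were ranked by Pearson's r among 2162 named genes, as a description that shares the arrays and the reference. For Map2 they were Dlgap1 (r = 0.95), Ilf2 (0.95) and Lancl2 (0.94). Without Cx43 KO 4 these values were 0.49, 0.62 and 0.59. Tubb2b came 31st and Mapt 90th by this measure. For Mapt they were Hacl1 (r = 0.93), Tctex1d2 (0.92) and Ilf2 (0.91), and for Tubb2b they were Atad3a (0.92), Mxi1 (0.91) and Sh3glb1 (0.90). For Dpysl3 they were Parp1 (r = 0.91), Selenon (0.91) and Mrps18b (0.90), and for Marcks they were Wtap (0.93), Med11 (0.90) and Prdx2 (0.88). For Syne1 they were Folr2 (r = 0.96), Ceacam14 (0.95) and Il1f6 (0.95), with 0.96, 0.96 and 0.95 left without Cx43 KO 4. Among these lists the Map2 one fell furthest when Cx43 KO 4 was left out.

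Other genes of the microtubule and neurite cytoskeleton, from lists that leave out the 7, gave no call between genotypes. Of 351 such genes 142 had a feature and 71 were tested, and with limma 0 of 71 passed, beside 0.0% of everything tested. At an unadjusted p of 0.05 there were 3, Dbn1, Kif4 and Lmnb2, beside 7.5% of everything tested. Of the 71, 32 were higher and 39 lower in Cx43 KO, with a median difference of -0.023, beside a median of 0.017 over all 3505. The groups did not overlap for 4 of the 71, near the 5.22% of all tested.

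Relatives of the members were measured in part. In the nesprin and lamina list 3 of 8 tested genes were higher and 5 lower (median difference -0.047). Syne2, encoding nesprin-2, averaged -0.92 ± 0.55 (SD, n = 4) over WT arrays and -0.94 ± 0.54 (SD, n = 3) over Cx43 KO arrays, a gap of -0.017 (SE 0.34, limma adjusted p = 0.995); whether it differed from that of Syne1 was not tested. Lmnb2, the lamin B2 of the nuclear lamina, lay at -0.33 ± 0.23 (SD, n = 4) and -0.85 ± 0.12 (SD, n = 4), a difference of -0.52 (SE 0.17, limma adjusted p = 0.654), with every Cx43 KO array below every WT array. Among collapsin response mediators and growth cone proteins 6 of 9 were higher and 3 lower (median 0.17). Dpysl2 averaged -1.67 ± 0.26 (SD, n = 4) over WT arrays and -1.99 ± 0.52 (SD, n = 4) over Cx43 KO arrays (limma adjusted p = 0.799), below the median feature where Dpysl3 lay above it. Dpysl2 and Syne2 were named after their values were seen. Dbn1, the actin-binding drebrin, lay at 1.57 ± 0.16 (SD, n = 3) and 2.14 ± 0.22 (SD, n = 4), a difference of 0.57 (SE 0.20, limma adjusted p = 0.655), and did not pass. Plxna1, a semaphorin receptor, differed by 0.41 (limma adjusted p = 0.753).

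Only 2 other tubulins were tested, 1 higher and 1 lower (median -0.045): the beta-tubulin Tubb5 differed by -0.16 and the gamma-tubulin Tubg2 by 0.071. Of 6 tubulin folding and modification genes 2 were higher and 4 lower (median -0.16), with Tbcel at -0.42 and the chaperonin subunit Cct4 at -0.30. Of 5 other microtubule-associated protein genes 1 was higher and 4 lower (median -0.25), with Mid1ip1 at -0.62 and Map7d1 at 0.45. On the end-binding and severing list 5 genes were higher and 5 lower (median 0.038), with the spindle protein gene Tacc3 at -0.63 and Ckap4 at 0.54. Ckap4 does not encode an end-binding or severing protein. Kinesins were 1 higher and 2 lower (median -0.092), with the mitotic kinesin Kif4 at -0.77 (SE 0.27, limma adjusted p = 0.655) and Kif22 at -0.092. On the dynein and dynactin list 3 genes were higher and 4 lower (median -0.016), with Pafah1b2 at 0.28 and Nde1 at -0.15. Neither of these named genes encodes a dynein or dynactin subunit. Centrosome genes were 3 higher and 2 lower (median 0.0032), with Cep63 at -0.12. That count includes Azi2 at -0.21, which encodes an adaptor of the kinase TBK1 and not a centrosomal protein. Intermediate filament genes were 1 higher and 2 lower (median -0.18), with the periplakin gene Ppl at -0.18 and peripherin (Prph) at -0.31. Kinases and phosphatases that act on tau and related proteins were 6 higher and 7 lower (median -0.0034), with the kinase genes Mapk9 at 0.36 and Csnk1e at -0.27. In the nuclear list the torsin gene Tor1a differed by 0.22. None of these genes passed an adjusted p of 0.05 with limma, and 0 of all 3505 did. At an unadjusted p under 0.05 there were 3 of the 71, beside 263 (7.5%) of all 3505. Against the pool the 71 genes split into 26 called higher and 23 called lower. Of everything tested 34.7% was called higher and 33.7% lower, so nothing particular to these lists is read from that split.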

How the data were processed

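RNA of 4 WT and 4 Cx43 KO astrocyte samples was set against a common tissue pool on 2-colour arrays. The authors deposited 1 signed log ratio per feature and array, read here as log2 ratios. The sources used here do not give the dyes, scanner, background correction, within-array normalization or base of the logarithm. Astrocyte RNA is in channel 2 per the labels. Exact 0 filled 42.4% to 63.4% of features on an array and was treated as missing. Array medians before centring lay between 0.085 and 0.32.

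Features with 1 symbol (7307) were averaged per gene, and 318 with several symbols and 1943 without any were kept as unnamed features. All 12 member features matched a gene of the GRCm38.p6 table by Entrez number. The 3505 genes and features (605 unnamed) with 3 or more values per genotype were fitted with limma 3.58.1 (R 4.3.3) without a block, two-sided, with Benjamini-Hochberg adjustment over all of them. The ratio to the pool was the mean of both genotype means against 0. Correlations used all orders of the 8 arrays (Python 3.11.15), two-sided. The fit was tested on simulated data.

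The members, lists and rule were chosen with earlier results of these data known. That rule named the members, from each list the 2 genes of smallest p, and the 3 genes most like each member. Arrays of equal number share a lot batch, per the labels, which is what pairs them. Alternatives were other centring and normalization, exact 0 as a value, the lot batch as a block, array weights, other filters, consistent features, and leaving out each array or lot batch.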

Additional observations from a re-analysis of the deposited data

Results flagged for a closer look

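On Cx43 KO 4 the mean of 4 astrocyte markers, 0.44, stood apart from the other 3 Cx43 KO arrays by a gap of 0.92 of the group's whole range, above the critical value of 0.829 for 4 samples. The oligodendrocyte lineage list, which rests on Cnp alone, lay at -1.53 on the same array with a gap of 0.89 of the range. Of 24 groups examined, those of the members with 8 values and of the marker lists, 2 passed that value, and chance alone puts about 1 group in 20 past it. The Map2 value of -2.54 on that array did not pass it.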

How the results depend on the processing

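The ratios to the pool of Tubb2b (2.08 to 2.41), Marcks (1.26 to 1.59), Dpysl3 (0.79 to 1.30), Mapt (-1.89 to -0.71) and Syne1 (-1.10 to -0.75) kept their direction and their call in all 22 alternatives run, none of which read a single Dpysl3 feature. That of Camsap1 could be fitted in 12 and lost its call when exact 0 was kept as a value (0.85, limma adjusted p = 0.0603). Map2 ran from -0.10 without lot batch 2 to 0.63 without Cx43 KO 4. The number of genes called over or under the pool ran from 1700 to 2958 against 2397. Without centring, the share of them called higher was 65.5% in place of 50.7%. For Cx43 KO minus WT the count over all genes was 2 with array weights and 0 to 4 when leaving out 1 array, with the 1 called without WT 2 and the 4 without Cx43 KO 4 holding no member. The Map2 difference was also positive without lot batch 4 (0.20). A replicate block for the lot batch left 0 genes called, and the block changed no call on a member. The count of correlated pairs was 1 with exact 0 kept as a value, Mapt and Syne1, and 0 with deviations from the lot batch means (replicate block). Mapt differed by -0.84 when only the feature with 8 ratios was used. With array weights the differences of Map2 and Mapt were -0.10 and -0.041. The pathway lists had 0 genes called in every alternative. The causes were not tested.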
